A study of Danio rerio with 8 samples.

Results

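The comparison described here sets the bud stage (end of gastrulation) against the shield stage (early gastrula) in primordial germ cells of zebrafish embryos that are homozygous mutants for pigu. Its members are the 4 mutant libraries of the 8 in the series, 2 from each stage, and every gene whose FPKM reached 1 in 2 or more of these 4 libraries. This rule kept 10821 of the 31200 gene symbols in the deposited table. Of the 10821 genes, 10274 (94.9%) reached that level in at least 1 library of each stage, while 259 (2.39%) passed through the bud libraries alone and 288 (2.66%) through the shield libraries alone and had to lie apart.

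All groups carried a germ cell label. Zygotes of both genotypes had been injected with an mRNA for GFP that carries the nanos1 3′ UTR, and the labels also name the line Tg(kop:EGFP-nanos 3'UTR) and the strains Tu and India. Fluorescent cells were picked by hand after dissociation of the embryos, the remaining somatic cells were used for genotyping, and cells of embryos with the same genotype were pooled and lysed for SMART-seq2, a full-length method for poly(A) RNA. The groups are pigu-/- at shield, pigu-/- at bud, wild type at shield and wild type at bud, each with 2 libraries named as biological replicates. The pigu allele is not described in the labels, one protocol field speaks of oocytes, and no label states whether replicate numbers pair the stages. Since nothing says how many embryos or clutches went into a pool, p-values refer to a spread between pools. The fit shares that spread over the 4 groups and across genes, so it is not that of the mutant pools alone. The SD of the log2 differences between replicates was 1.81 and 2.35 in the mutant (shield and bud) and 1.46 and 0.94 in wild type.

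Primordial germ cells are the founders of eggs and sperm. In zebrafish they are set apart by inherited germ plasm, and between shield and bud they move through the embryo, guided by the chemokine Cxcl12a and its receptor Cxcr4b, while the stores of RNA laid down in the egg are cleared and the embryo's own genome supplies new RNA. pigu codes for a subunit of the GPI transamidase, which attaches glycosylphosphatidylinositol (GPI) anchors to newly made proteins of the secretory pathway. The question of the series is how the complex bears on germ cell migration. The stage comparison within the mutant shows which RNAs differed between the ends of that period in cells that carry the mutation.

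The 4 libraries differed widely from each other. FPKM is a fragment count scaled to transcript length and to library size, and the read depth behind it is unknown, so no counting error is given. Replicate 1 of each stage was sparse, with 41.5% (shield) and 36.8% (bud) of the tested genes listed at 0, against 2.11% and 2.84% in the replicates 2. Genes that every cell uses are among those listed at 0. Whether a listed 0 is absence of the RNA, low depth or a failed estimate was not tested. Mitochondrial transcripts made up 72.39% and 23.58% of all FPKM at shield in the mutant, replicate 1 first, and 37.45% and 17.37% at bud. Pearson's r between the replicates over the tested genes was 0.65 at shield and 0.58 at bud in the mutant, and 0.79 and 0.91 in wild type. The median log2 difference of all tested genes between bud and shield was 0.35, but in the 4 pairings of 1 bud with 1 shield library it was 0.44 (bud 1 and shield 1), −0.93 (bud 1 and shield 2), 1.84 (bud 2 and shield 1) and −0.19 (bud 2 and shield 2). Median-of-ratios scaling moved it to 0.09, quantile normalization to 0.06 and rescaling to the FPKM outside the mitochondrial genome to −0.03. The share of genes with a difference above 0 was 59.8% as deposited (40.2% lay below 0) and 53%, 52.2% and 49.1% after these scalings. Group medians below have this all-gene median subtracted.

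Germ cell markers were present in all 4 libraries, at uneven levels. nanos3, a regulator of germ cell survival, stood at 2885 and 20924 FPKM at shield and at 7285 and 1518 at bud. This gene was formerly named nanos1, so reads from the injected reporter, which carries its 3′ UTR, may be counted in it. ddx4, the germ cell helicase Vasa, stood at 106 and 1264 at shield and 1401 and 204 at bud. The 8 markers summed to 4607 and 33613 FPKM at shield and to 16462 and 3272 at bud, so that the stages overlapped and mutant bud replicate 2 was the lowest of the 4. nanos3 was the highest nuclear gene in the other libraries, while in mutant bud replicate 2 it was eef1a1l1, a translation elongation factor, with 9519 FPKM. piwil1, of the piRNA pathway, was listed at 0 in both replicates 1. In pooled cells, fewer germ cells and less germ cell RNA per cell cannot be told apart. Markers of other embryonic cells were uneven between the libraries. Paraxial mesoderm markers summed to 102 and 503 FPKM at shield and to 375 and 337 at bud, and epidermis markers to 0 and 73.0 against 0 and 13.8. Hatching gland markers summed to 0 and 0 FPKM at shield and to 11.2 and 409 at bud, neural plate markers to 55.4 and 63.7 against 109 and 488, and enveloping layer markers to 402 and 7.6 against 8.8 and 671. tal1 and etv2 of blood and vessel were listed at 0 in all 4 mutant libraries.

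Few single genes passed the test. limma was fitted to log2(FPKM + 1) over the 4 groups, and at a Benjamini-Hochberg adjusted p under 0.05 it called 0 genes higher at bud (0% of 10821) and 3 genes lower (0.0277%). At an unadjusted p under 0.05 it found 614 genes higher (5.67%) and 329 lower (3.04%). The count of higher genes rested on mutant shield replicate 2: without it 356 genes were called higher and 20 lower, with the spread of the lone shield library assumed to be that of the other groups. Among the genes described below, those called higher without it were elavl1b, ndufs6, alcamb, fbxw11b, bub3, ndufa10, eif1ad, ptgdsb.1, fundc2, eef2a.1, apoeb, get1, itgb1b, eif3ba, ndufs5, eef2b, mycn, rarga, vcp, hnrnpk, hsp90ab1, copa, celf1, copb1, cdx4, rpa1 and lsm14ab, and those called lower were ccna1, cldng, BX649394.5, inka1a, cth1, hsp70.3, fam113 and hist2h3c. That setting leaves the sparse replicate 1 alone for shield. Its median difference of all genes was 1.36, against −0.55 without mutant shield replicate 1. With all 4 libraries, both bud libraries lay above both shield libraries for 1977 genes (18.3%) and below them for 1145 (10.6%). Of these, 1718 and 857 remain when the genes that passed the filter through 1 stage alone are left out. Counts of list members without overlap in the mutant below are to be read against the shares of 18.3% and 10.6%. The lists were chosen with earlier results of these data known, so such counts are a description and not a test. With the genes divided into 4 equal bins by mean level, the median difference was 0.04 and 0.16 in the 2 lower bins and 0.70 and 0.67 in the 2 higher. With 2 libraries against 2, no permutation test could go below p = 0.333, so that separation of the libraries is given as a description.

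The genes that fell were ccna1, cldng and an unnamed locus, in a fit whose spread is shared with the wild type libraries. ccna1, an A-type cyclin known in the frog as a maternal cell cycle regulator, stood at 188 and 371 FPKM at shield and at 0 and 5.09 at bud. It fell by 6.75 on the log2(FPKM + 1) scale (SE 1.04, limma adjusted p = 0.0231). cldng, a claudin of tight junctions, stood at 294 and 268 at shield and 0 and 8.16 at bud, a fall of 6.54 (SE 1.05, limma adjusted p = 0.0231). Both genes were thus abundant in each shield pool and far lower in each bud pool. In mutant bud replicate 2 they were still read, at 5.09 and 8.16 FPKM, and each 0 came from the sparse mutant bud replicate 1. Without that library the differences were −5.45 for ccna1 and −4.94 for cldng, and neither passed (limma adjusted p = 0.159 and 0.176). Without mutant shield replicate 1 the difference of cldng was −6.48 and its adjusted p 0.0874. BX649394.5, which lies outside the rule for named genes because it has no gene name, stood at 201 and 116 at shield. It was listed at 0 in both bud libraries (log2 difference −7.26, SE 1.2, limma adjusted p = 0.0231). This locus had passed the filter through shield alone and had to lie apart. Its call was lost without either bud library (adjusted p = 0.282 and 0.145) and without mutant shield replicate 1 (0.198). Fitted on the 4 mutant libraries alone, limma called none of the 3 (adjusted p = 0.0651, 0.0651 and 0.349) and 2 other unnamed loci, CR925768.2 and AL953856.1, lower. In wild type, ccna1 stood at 549 and 609 at shield and 22.6 and 22.6 at bud, and cldng at 549 and 404 and 52.7 and 29.6.

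**Figure D1:**
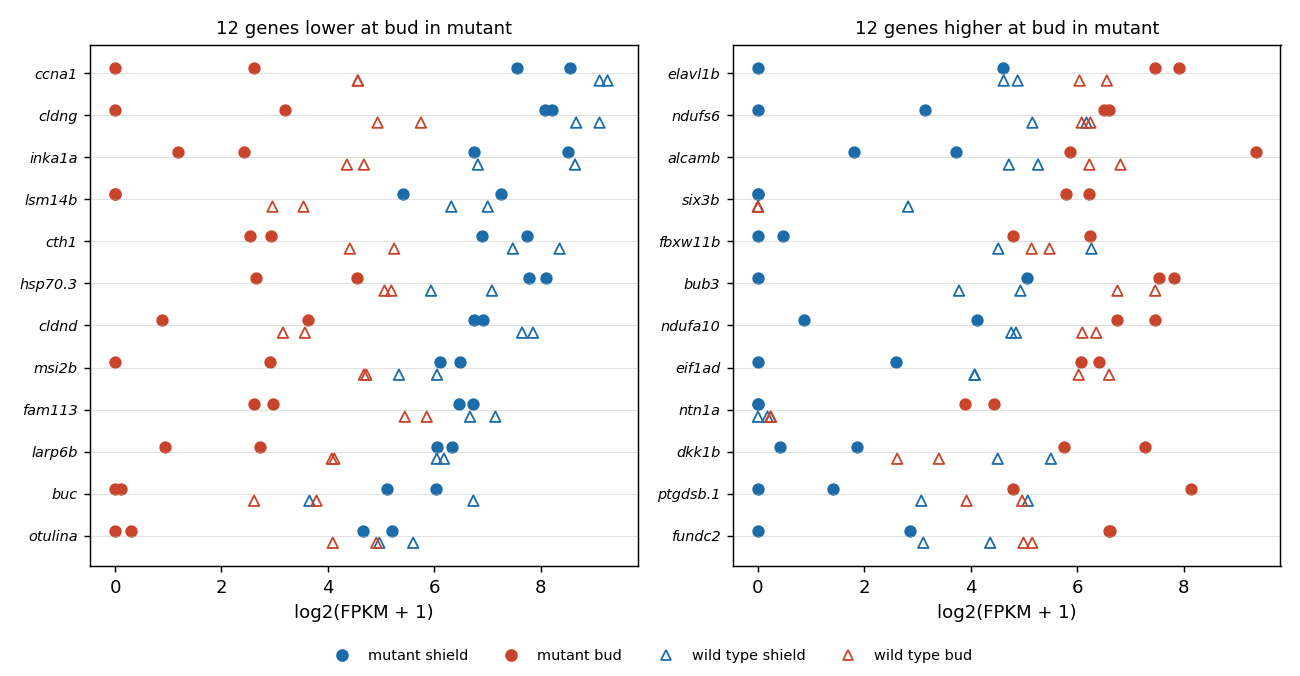
FPKM on a log2(FPKM + 1) axis of the 12 genes lower and the 12 genes higher at bud with the smallest p in the pigu mutant among genes whose stages do not overlap; each point is 1 library, filled circles are mutant and open triangles wild type, blue is shield and red is bud. In the left panel ccna1 lies in the mutant at 188 and 371 FPKM at shield and 0 and 5.09 FPKM at bud, while in the right panel six3b lies at 0 in both mutant shield libraries and at 73.5 and 54.5 in mutant bud.

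None of the next genes on the lower side passed the test. Here and on the higher side the 12 genes with the smallest p among those whose stages do not overlap are named, so they were chosen for that lack of overlap. Of them lsm14b, buc and otulina passed the filter through shield alone, and six3b, ntn1a and fbxw11b through bud alone. These had to lie apart. inka1a, an inhibitor of PAK kinases in human cells, stood at 107 and 361 FPKM at shield and 1.28 and 4.34 at bud (log2 difference −5.82, SE 1.09, limma adjusted p = 0.0700). lsm14b, which represses translation of stored mRNA in mouse oocytes, stood at 41.5 and 151 at shield and was listed at 0 in both bud libraries (−6.33, SE 1.32, adjusted p = 0.162). cth1, a CCCH zinc finger gene, stood at 117 and 212 against 6.65 and 4.81 (−4.57, SE 0.98, adjusted p = 0.184). Over these 3 genes the lowest shield value was 41.5 FPKM and the highest bud value 6.65. The call of inka1a depended on the setting, with 10 of 26 settings under the threshold.

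buc codes for Bucky ball, which gathers germ plasm in the oocyte, and its RNA stood at 33.6 and 64.5 FPKM at shield and 0 and 0.082 at bud. msi2b, a Musashi RNA-binding protein gene, stood at 68.3 and 87.8 against 0 and 6.53. larp6b, of the La-related RNA-binding family, stood at 65.3 and 79.7 against 0.92 and 5.57. The claudin gene cldnd was close to cldng in pattern, at 119 and 106 at shield and 11.3 and 0.85 at bud. hsp70.3, an inducible heat shock gene, stood at 217 and 273 against 5.30 and 22.4; its reads may be shared with the near-identical hsp70.1 and hsp70.2, and the authors' handling of such reads is not stated. fam113 stood at 105 and 86.6 against 6.80 and 5.07, and otulina, which removes linear ubiquitin chains, at 24.3 and 36.0 against 0 and 0.23. For these 7 genes the log2 differences ran from −5.52 (SE 1.53) for buc to −3.81 (SE 0.99) for fam113, and the limma adjusted p from 0.331 to 0.465.

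The wider group of oocyte and maternal store genes lay low at bud. Of 28 tested members, 13 had both bud libraries below both shield libraries (46.4%, against 10.6% of all genes) and 0 had both above. Among the 13 were lsm14b, cth1, cldnd and buc, already named above for their small p and lack of overlap. The median difference of the list was −2.22 relative to all genes, and it was below 0 in each of the 4 pairings of libraries (from −3.0 to −0.81), with −1.32 when mutant bud replicate 2 was left out. Beside those named above, btg4, an adaptor for deadenylation of maternal mRNA in mouse oocytes, stood at 18.2 and 26.3 FPKM against 0 and 1.47. The oocyte-secreted growth factor genes bmp15 and gdf9 stood at 16.1 and 29.8 against 0 and 2.13 and at 4.72 and 9.82 against 0 and 0. zar1, named for zygote arrest in the mouse, stood at 69.5 and 40.5 against 28.3 and 1.88. pabpn1l, an embryonic poly(A)-binding protein gene, stood at 280.4 and 327 against 112 and 44.3, and the oocyte linker histone gene h1m at 810.1 and 735 against 540.4 and 68.5.

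Not every gene of the list followed. bmp15, gdf9, zar1, pabpn1l and the genes named next were chosen after their values were seen. ybx1, a repressor of maternal mRNA translation, stood at 221 and 982 FPKM at shield and 510.0 and 3076 at bud (log2 difference 1.42, SE 0.84), and npm2b, a maternal nucleoplasmin, at 95.1 and 96.6 and 117 and 43.0 (−0.43, SE 0.92). Neither passed, their stages overlapped, and npm2b turned to 0.28 without mutant bud replicate 2. Of the members of the list, 3 passed the filter through shield alone. As a share of the FPKM outside the mitochondrial genome the list summed to 1.51% and 1.93% at shield and 1.08% and 0.73% at bud, without overlap. In wild type the corresponding shares were 1.72% and 2.29% against 0.93% and 1.07%.

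Within a family, single genes stood apart from their paralogs, as the plot of cyclins, importins, RNA-binding proteins and claudins shows. These families were chosen after their values were seen. Beside ccna1, the somatic A-type cyclin ccna2 stood at 73.3 and 365 FPKM at shield and 260.5 and 116 at bud (log2 difference 0.08, SE 0.85), with overlap and a sign that turned under the 3 scalings (−0.58, −0.55 and −0.63). The B-type cyclin ccnb1 stood at 364 and 548 against 190.3 and 276 (−0.96, SE 0.68). lsm14aa and lsm14ab, paralogs of lsm14b, stood at 19.9 and 36.5 against 143 and 48.8 (1.60, SE 1.13) and at 0 and 45.0 against 29.5 and 37.8 (2.34, SE 1.52, and −0.42 without mutant shield replicate 1). The lsm14b transcript was thus listed at 0 at bud while those of both paralogs were read in both bud libraries, and the contrast between paralogs was not tested.

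Importin alpha genes, whose products carry proteins into the nucleus, were also split. kpna7, the egg type in mammals, stood at 27.5 and 102 FPKM at shield and 23.4 and 6.44 at bud (log2 difference −2.01, SE 0.99). kpna1, kpna2, kpna3 and kpna5 had both bud libraries above both shield libraries, kpna2 with 79.4 and 154 against 297 and 217 (1.19, SE 0.76) and kpna1 with 2.04 and 3.77 against 17.4 and 24.4 (2.51, SE 1.49). kpna4 and kpna6 overlapped. None of these passed. Among claudins, cldn7b stood at 17.8 and 33.9 at shield and 13.9 and 13.5 at bud (−0.81, SE 1.2), while cldne of the enveloping layer followed the libraries rather than the stage, at 40.7 and 5.09 against 0 and 24.6.

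**Figure D2:**
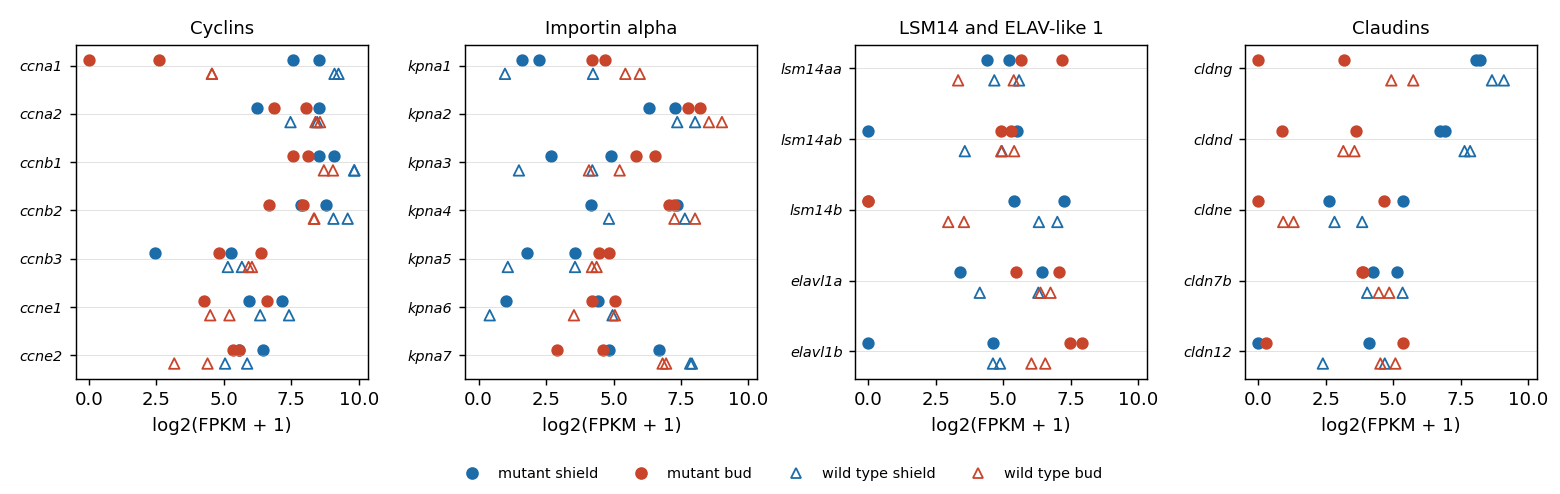
FPKM on a log2(FPKM + 1) axis of cyclins, importin alpha genes, LSM14 and ELAV-like genes and claudins; each point is 1 library, filled circles are mutant and open triangles wild type, blue is shield and red is bud. ccna1, kpna7, lsm14b, cldng and cldnd have their red mutant points to the left of the blue, while kpna2 and elavl1b have them to the right.

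On the higher side no gene passed, and the named genes are those with the smallest p (limma adjusted p from 0.340 to 0.359). elavl1b, of the ELAV family that stabilizes mRNA, stood at 0 and 23.3 FPKM at shield against 241 and 174 at bud (log2 difference 5.38, SE 1.26, limma adjusted p = 0.340). bub3, of the spindle checkpoint, stood at 0 and 32.4 against 225 and 184 (5.14, SE 1.30, adjusted p = 0.359). The complex I subunits ndufs6 and ndufa10 stood at 0 and 7.85 against 96.2 and 90.1 and at 0.81 and 16.3 against 176 and 106. Of the others, fbxw11b codes for a substrate receptor of an SCF ubiquitin ligase (0.39 and 0 against 74.3 and 26.8) and fundc2 for a protein of the mitochondrial outer membrane (0 and 6.29 against 96.2 and 96.9). eif1ad stood at 0 and 5.03 against 65.8 and 83.8. For 5 of these 7 genes a shield value of 0 came from the sparse replicate 1. Leaving out mutant shield replicate 2 keeps only that sparse shield library, and the median difference of all genes was then 1.36. It was −0.55 when mutant shield replicate 1 was left out.

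The other named genes on the higher side include a transcription factor and secreted proteins. six3b, a transcription factor of the forebrain, was listed at 0 in both shield libraries and stood at 73.5 and 54.5 FPKM at bud. ntn1a, which codes for the guidance cue netrin of the floor plate, was likewise listed at 0 in both shield libraries and stood at 20.8 and 13.8 at bud. dkk1b, a secreted Wnt antagonist of the prechordal plate, stood at 2.65 and 0.34 against 153 and 52.7 (log2 difference 5.36, SE 1.38, limma adjusted p = 0.359). These 3 genes were higher in mutant bud replicate 1 than in replicate 2. Marker sums of hatching gland, enveloping layer, axial mesoderm and neural plate, the last including six3b, were higher in replicate 2. Those of paraxial mesoderm and the yolk syncytial layer were higher in replicate 1. What part other cells had in the values of these genes was not tested. alcamb, an adhesion molecule of the immunoglobulin family, stood at 2.48 and 12.14 against 57.3 and 651, and ptgdsb.1, a lipocalin gene, at 0 and 1.64 against 26.6 and 282, both highest in replicate 2. Both were read in all 4 wild type libraries, alcamb at 25.3 and 37.4 at shield and 111 and 73.9 at bud and ptgdsb.1 at 32.6 and 7.38 and 30.2 and 14.1.

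Genes for protein synthesis stood higher at bud. Of 79 tested ribosomal protein genes, both bud libraries lay above both shield libraries for 61 (77.2%, against 18.3% of all genes) and below for 0, 39 had an unadjusted p under 0.05, and none passed over all genes. Their median difference was 1.31 relative to all genes and lay above 0 in each of the 4 pairings, from 0.48 to 2.61. It was 0.38 without mutant shield replicate 2 and 2.1 without mutant shield replicate 1. rpl7 stood at 127 and 202 FPKM at shield and 637 and 1344 at bud (log2 difference 2.52, SE 0.73, limma adjusted p = 0.465). rpl39 stood at 865 and 564 against 2055 and 7301 (2.47, SE 0.73), and rps16 at 216 and 286 against 796 and 2301 (2.44, SE 0.73). Bud replicate 2 had by far the highest values of these genes. As a share of the FPKM outside the mitochondrial genome the list summed to 7.62% and 3.25% at shield and 6.36% and 15.0% at bud, so on that scale the stages overlapped. Ribosomal protein genes are of high level, and the highest of 4 bins of all genes by mean level had a median of 0.67 against 0.35 for all genes.

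Translation factors had a relative median of 1.21. Without overlap, 21 of 49 tested members (42.9%) were higher and 3 (6.12%) lower, against 18.3% and 10.6% of all genes. eef2a.1, an elongation factor gene, was listed at 0 in both shield libraries and stood at 80.9 and 45.3 FPKM at bud (log2 difference 5.94, SE 1.57, limma adjusted p = 0.373). It had passed the filter through bud alone and had to lie apart. eef2b stood at 52.4 and 405 against 506 and 1521 (2.58, SE 0.86), and the initiation factor gene eif3ba at 2.23 and 152 against 262 and 375 (3.82, SE 1.24). On the lower side were eif1b and the translation repressors eif4ebp1 and eif4ebp3l, the former with 7.46 and 10.6 FPKM at shield and 0.58 and 1.38 at bud (−2.35, SE 1.37). Summed, translation factors took 1.88% and 1.96% of the FPKM outside the mitochondrial genome at shield and 2.07% and 3.93% at bud, without overlap.

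Other lists of general cell machinery also had positive medians. The proteasome list lay at 0.94, with 26 of 46 members higher without overlap and 0 lower, and its summed share of the FPKM outside the mitochondrial genome lay apart, at 0.91% and 0.56% at shield and 1.12% and 1.16% at bud. Without mutant shield replicate 2 the proteasome median was 0.53, and without mutant shield replicate 1 it was 1.47. psmb3 and psmb6, subunits of the catalytic core, stood at 84.0 and 118 FPKM against 392 and 517 (log2 difference 2.16, SE 0.77) and at 29.1 and 36.5 against 183 and 194 (2.49, SE 0.90). Importins and nuclear transport genes lay at 1.28 (12 of 29 higher, 2 lower), splicing factors at 0.67 (22 of 73 higher, 4 lower) and the genes for mRNA storage, deadenylation and decay at 0.52 (10 of 41, or 24.4%, higher and 5 lower, against 18.3% and 10.6% of all genes). Of the higher members, 1 each of the proteasome, splicing and decay lists had passed the filter through bud alone and had to lie apart. On the lower side so had lsm14b of the decay list, through shield alone. Splicing factors lay at 0.44 without mutant shield replicate 2. The decay list lay at 0.098 without mutant bud replicate 1, 0.33 without mutant shield replicate 1, 1.01 without mutant bud replicate 2 and 0.83 without mutant shield replicate 2. As a summed share the stages of these 3 lists overlapped, with importins at 0.32% and 0.60% against 0.59% and 0.59%, splicing factors at 3.59% and 3.15% against 3.08% and 3.87% and the decay list at 0.42% and 0.64% against 0.46% and 0.96%. ranbp1, a partner of the GTPase Ran, stood at 85.7 and 225 at shield and 385 and 504 at bud (1.66, SE 0.76). hnrnpk stood at 16.1 and 158 against 223 and 570.0, while hnrnpdl ran the other way at 60.3 and 191 against 30.5 and 3.69. The decay list was split, with the decapping gene dcp2 and the exonuclease gene xrn1 on the higher side and lsm14b, cth1, btg4, cnot8 and parn on the lower.

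**Figure D3:**
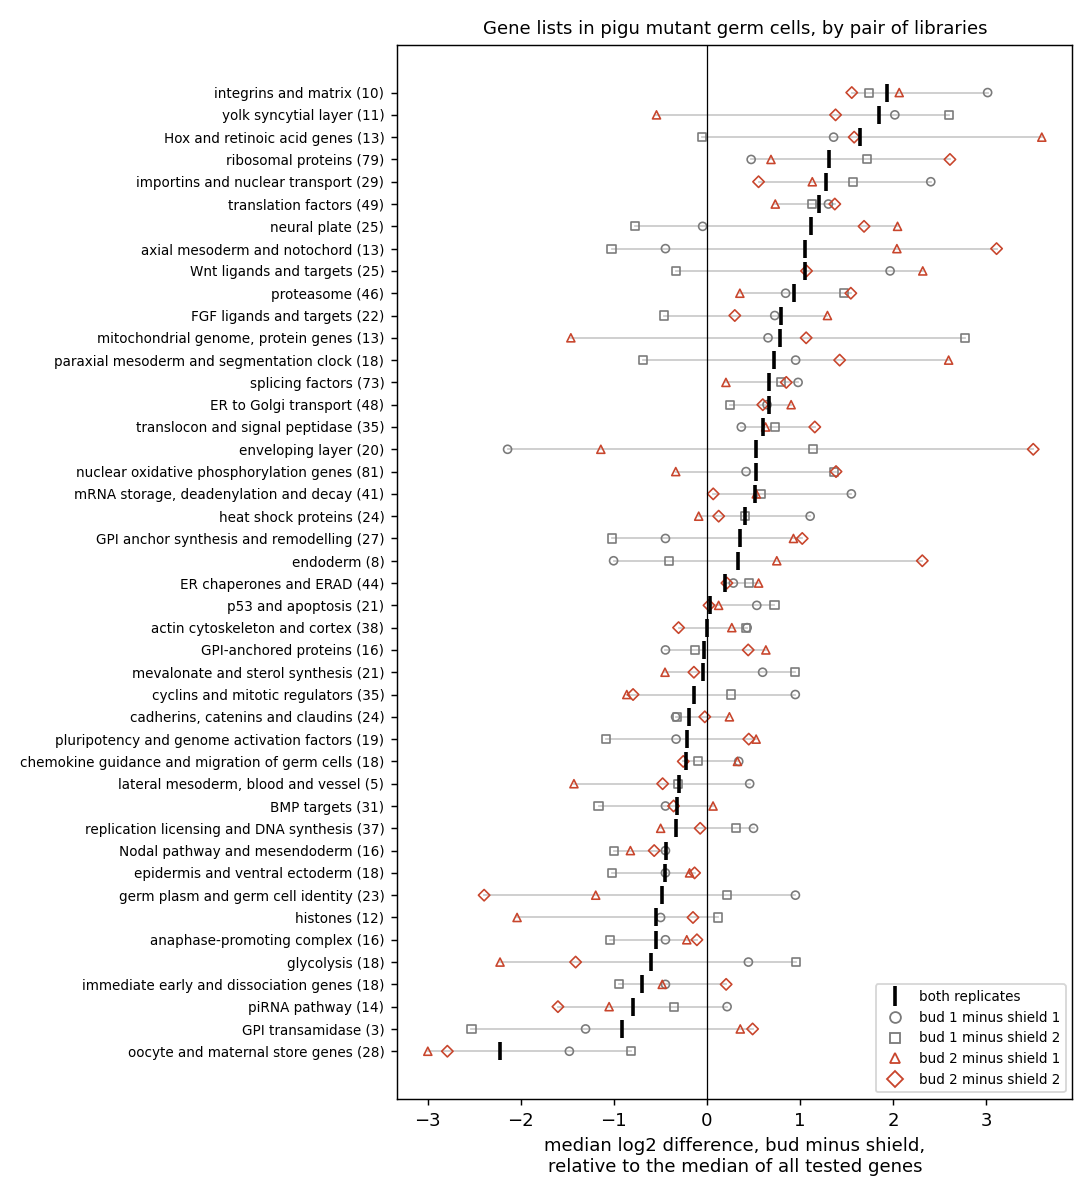
Median log2 difference of the tested members of each of the 44 gene lists in the pigu mutant, bud minus shield, relative to the median of all tested genes; the number of tested members is in brackets, the black bar uses both replicates of each stage and the symbols are the 4 pairings of 1 bud with 1 shield library. Oocyte and maternal store genes lie at −2.22 with all 4 symbols below 0, and 11 lists have all 4 symbols above 0, among them ribosomal proteins at 1.31.

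Across the 44 lists, the 4 pairings agreed in sign for 15, of which 11 lay above 0 and 4 below. For 29 lists the sign depended on which libraries were paired. The pairings share libraries and are not independent. Beside the lists above, those above 0 in all pairings were the translocon, ER to Golgi transport, ER chaperones, integrins and matrix, and the p53 and apoptosis genes, the last within 0.04 of the median of all genes when both replicates are used. Those below were, with the oocyte list, the anaphase-promoting complex, the Nodal pathway and the epidermis. Under the 3 scalings the sign of the p53 list turned (from −0.15 to −0.05), as did those of sterol synthesis (0.09 to 0.18) and the actin cytoskeleton (−0.12 to −0.11). Under quantile normalization those of the GPI-anchored proteins and of lateral mesoderm, blood and vessel turned to 0.28 and 0.21.

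GPI-anchored proteins pass through the secretory pathway. Of all genes, 18.3% were higher without overlap and 10.6% lower. The translocon and signal peptidase list lay at 0.60 (13 of 35 higher without overlap, 2 lower), ER to Golgi transport at 0.67 (14 of 48 higher, 4 lower) and ER chaperones and ERAD at 0.20 (10 of 44, or 22.7%, higher, 2 lower). Without mutant shield replicate 2 the translocon list lay at 0.34, and without mutant bud replicate 1 or mutant shield replicate 1 at 1.00 and 0.95. The ER chaperone list lay at 0.0043 without mutant shield replicate 2, 0.0060 without mutant bud replicate 2, 0.056 without mutant shield replicate 1 and 0.38 without mutant bud replicate 1. ssr4, of the translocon-associated complex, stood at 111 and 166 FPKM at shield and 485 and 743 at bud (log2 difference 2.14, SE 0.72, limma adjusted p = 0.506). spcs1 of the signal peptidase stood at 3.50 and 4.46 against 55.1 and 43.9 (3.34, SE 1.22), and get1, which inserts tail-anchored proteins, at 0 and 2.76 against 74.9 and 39.8 (4.84, SE 1.45). The signal peptidase gene sec11a stood on the lower side, at 44.2 and 33.4 against 29.2 and 11.5. yipf5, a Golgi membrane protein gene, stood at 17.3 and 85.4 against 0 and 5.79 (−3.93, SE 1.19, limma adjusted p = 0.472), while the coat genes copa and copb1 stood at 0.22 and 36.7 against 44.2 and 97.1 and at 0.47 and 42.1 against 77.2 and 72.3. vcp, the ATPase that extracts proteins from the ER membrane, stood at 6.19 and 54.4 against 101 and 189 (2.80, SE 1.03).

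Of the 5 subunits of the GPI transamidase, 3 passed the filter and the stages overlapped in each. pigu itself stood at 0.81 and 10.95 FPKM at shield against 0 and 7.32 at bud (log2 difference −0.69, SE 1.74), so its RNA was read in 3 of the 4 mutant libraries. pigs stood at 4.09 and 9.96 against 0 and 24.4 (−0.57, SE 1.72) and pigt at 0 and 2.60 against 0 and 3.43 (0.15, SE 1.25). The limma adjusted p was 0.983 or above for each. pigk, the catalytic subunit, and gpaa1 were not tested. In each of the 3 tested subunits the replicates 1 held the lower value of their stage. The sign changed when a single mutant library was left out: pigu lay between −2.22 (without bud 2) and 0.84 (without bud 1), pigs between −2.90 and 1.77 and pigt between −0.92 and 1.22, by the same libraries.

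The wider GPI pathway gave small group values. Genes of anchor synthesis and remodelling had a relative median of 0.36, with 4 of 27 (14.8%) higher without overlap and 1 (3.7%) lower. The GPI-anchored proteins lay at −0.03, with 3 of 16 (18.8%) in each direction. Of these, 1 in each direction had passed the filter through 1 stage alone and had to lie apart. So had 1 of the 4 higher genes of anchor synthesis, through bud alone. The shares of all genes were 18.3% and 10.6%. tmed10, a cargo receptor that carries GPI-anchored proteins out of the ER in other species, stood at 18.3 and 33.8 FPKM at shield and 96.0 and 134 at bud (log2 difference 2.14, SE 0.92). Among anchored proteins the Nodal co-receptor gene tdgf1 stood at 104 and 126 against 2.57 and 26.9 (−3.53, SE 1.16, limma adjusted p = 0.506). thy1 stood at 1.66 and 80.8 at shield and was listed at 0 in both bud libraries. rgmb, a repulsive guidance molecule, stood at 0 and 0.84 against 13.6 and 15.3 (3.51, SE 1.51). The sign of the anchor synthesis list turned without mutant bud replicate 2, where it lay at −0.81. That of the GPI-anchored proteins turned to 0.42, 0.36 and 0.68 without mutant bud replicate 1, mutant shield replicate 1 and mutant shield replicate 2.

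Mitochondrial transcripts gave values that depended on the libraries and on which entries were summed. All 13 mitochondrial protein genes had a positive difference, 7 of them without overlap (53.8%, against 18.3% of all genes). Their median was 0.79 relative to all genes, with pairings from −1.46 to 2.77. mt-nd1, of complex I, stood at 371 and 407 FPKM at shield and 1465 and 1053 at bud (log2 difference 1.67, SE 0.73, limma adjusted p = 0.542). mt-atp8, of the ATP synthase, stood at 11444 and 7654 against 31907 and 23835 (1.56, SE 0.67). Leaving out mutant shield replicate 2 turned the value of the list to −0.63, and leaving out mutant bud replicate 1 to −0.22. The summed share of all mitochondrial entries, including those outside the protein genes, overlapped between the stages, at 72.39% and 23.58% against 37.45% and 17.37%. It was higher in replicate 1 than in replicate 2 of each stage. Of 81 nuclear genes of oxidative phosphorylation, 42 (51.9%) stood higher without overlap and 4 (4.94%) lower (median 0.53, or −0.07 without mutant shield replicate 2). The shares of all genes were 18.3% and 10.6%. Of the 4 lower genes, 2 had passed the filter through shield alone and had to lie apart. ndufs5 stood at 13.3 and 36.2 against 154 and 186 (2.88, SE 0.96) and ndufa5 at 17.1 and 49.5 against 206 and 152 (2.56, SE 0.93). Glycolysis genes lay at −0.60 (0.63 without mutant bud replicate 2), with 2 of 18 higher and 3 lower, and mevalonate and sterol synthesis at −0.05 (0.80, 0.06 and 0.48 without mutant bud replicate 2, mutant shield replicate 1 and mutant shield replicate 2; 4 of 21 higher, 1 lower), with nsdhl at 17.7 and 15.9 against 1.45 and 0.74.

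Germ plasm and germ cell genes showed no stage difference that held across the libraries. The list of 23 tested genes had a relative median of −0.48, with 1 member (4.35%) higher without overlap and 3 (13.0%) lower, against 18.3% and 10.6% of all genes. Of the 3 lower, buc had passed the filter through shield alone and had to lie apart. The value of the list was 0.95 and 0.21 in the pairings with mutant bud replicate 1 and −1.19 and −2.39 in those with replicate 2, the library with the lowest germ cell markers. It was 0.92 when that library was left out. Apart from buc and h1m, rgs14a, a regulator of G protein signalling, stood at 9.87 and 243 FPKM against 0 and 16.0 and celf1, an RNA-binding protein gene, at 0 and 83.6 against 93.2 and 121. dnd1, which protects germ cell mRNA from microRNAs, stood at 904 and 3798 against 3134 and 632 (log2 difference −0.40, SE 0.83), and dazl, a translation regulator, at 16.0 and 121 against 196 and 41.4 (1.00, SE 1.14). The sign of both turned when single mutant libraries were left out, to 0.64 and 0.76 for dnd1 without shield 2 or bud 2 and to −0.42 and −0.11 for dazl without shield 1 or bud 1. Genes of the piRNA pathway, which silences transposons in germ cells, lay at −0.79 (0 of 14 higher and 3, or 21.4%, lower), with pairings from −1.60 to 0.22. Their value was −0.017 without mutant bud replicate 2, −0.37 without mutant shield replicate 2, −1.66 without mutant bud replicate 1 and −1.42 without mutant shield replicate 1, and asz1 stood at 42.1 and 54.9 against 19.5 and 8.53.

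Genes of chemokine guidance and migration lay at −0.23 (0.04 without mutant bud replicate 2). Without overlap, 4 of 18 (22.2%) were higher and 1 (5.56%) lower, against 18.3% and 10.6% of all genes. Of the 4 higher, ackr3b had passed the filter through bud alone. cxcr4b, the receptor that guides germ cells, stood at 316 and 574 FPKM at shield and 391 and 45.1 at bud (log2 difference −1.67, SE 0.89, limma adjusted p = 0.602), low in mutant bud replicate 2 alone. Its paralog cxcr4a stood at 65.8 and 120.1 against 0 and 37.1 (−3.87, SE 1.51). ackr3b, which takes up Cxcl12 in the surrounding somatic cells, was listed at 0 at shield and stood at 9.40 and 16.2 at bud. The adhesion gene cdh2, for N-cadherin, stood at 0.19 and 1.59 against 48.8 and 78.4 (5.16, SE 1.60). cdh1, for E-cadherin, stood at 2.16 and 36.8 against 2.68 and 34.4 and followed the replicate number rather than the stage.

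Adhesion genes were split by kind. Cadherins, catenins and claudins lay at −0.19 (0.12 without mutant bud replicate 1), with 1 of 24 (4.17%) higher without overlap and 5 (20.8%) lower. Among the lower were cldng, cldnd and epcam, the last at 243 and 216 FPKM at shield and 89.7 and 66.4 at bud (log2 difference −1.56, SE 0.77). Integrins and matrix genes lay at 1.94, the highest of the 44 lists, but only 10 of the 58 listed genes were tested, of which 6 stood higher without overlap. Of these 6, 1 had passed the filter through bud alone and had to lie apart. itgb1b stood at 0 and 44.7 against 109 and 172 (4.35, SE 1.37), and the laminin gene lama1 at 0 and 0.60 against 9.27 and 16.5 (3.41, SE 1.30). The actin cytoskeleton list lay at 0.00 (8 of 38, or 21.1%, higher and 4, or 10.5%, lower, against 18.3% and 10.6% of all genes). Its cytoplasmic actins actb1 and actb2, whose similar sequences may share reads, stood at 206 and 300.0 against 1179.5 and 1091 and at 473 and 1397 against 1488 and 4366, and cfl1l, of the cofilin family, at 217 and 212 against 0 and 87.4.

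Cell cycle, chromatin and replication lists lay slightly below all genes, and none kept that sign without every single library. Their values turned to 0.40 (cyclins, without mutant bud replicate 2), 0.01 (anaphase-promoting complex, without mutant bud replicate 1), 0.05 (histones, without mutant shield replicate 1) and 0.13 and 0.12 (replication, without mutant bud replicate 2 or mutant shield replicate 1). Cyclins and mitotic regulators lay at −0.14 (2 of 35 higher without overlap, 6 lower), the anaphase-promoting complex at −0.55 (2 of 16 higher, 3 lower), histones at −0.54 (1 of 12 higher, 3 lower) and replication licensing and DNA synthesis at −0.33 (4 of 37 higher, 5 lower). In that order the higher shares were 5.71%, 12.5%, 8.33% and 10.8%, against 18.3% of all genes. The lower shares were 17.1%, 18.8%, 25.0% and 13.5%, against 10.6% of all genes. cdkn1ca, a cyclin-dependent kinase inhibitor, stood at 19.6 and 57.1 FPKM at shield and 187 and 143 at bud (log2 difference 2.25, SE 0.90). orc6 of the origin recognition complex stood at 89.6 and 384 against 1.04 and 75.1 (−3.90, SE 1.23), and gmnn, for the licensing inhibitor geminin, at 64.7 and 60.2 against 10.5 and 6.25 (−2.80, SE 1.22). rpa1, for a single-stranded DNA-binding protein, was on the other side with 10.7 and 74.5 against 138 and 144. Most histone mRNA lacks a poly(A) tail and such genes are present in near-identical copies, so the values of hist2h3c (586 and 104 against 35.8 and 67.3) are uncertain.

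Pluripotency and genome activation factors lay at −0.21, and turned to 0.74 without mutant bud replicate 1 and 0.48 without mutant shield replicate 2. Of 19 members 3 (15.8%) were higher without overlap and 2 (10.5%) lower. Among the higher, prdm14 and kdm2ba had passed the filter through bud alone and had to lie apart. nanog, which with its partners opens the zygotic genome, stood at 94.4 and 377 FPKM at shield and 69.7 and 5.30 at bud (log2 difference −3.17, SE 1.16), and vox, a ventral homeobox repressor, at 210.0 and 238 against 55.3 and 64.4 (−1.89, SE 0.79). prdm14 was listed at 0 at shield and stood at 19.1 and 7.74 at bud, and kdm2ba stood at 0.85 and 0.16 against 40.1 and 22.2. Stress lists were mixed. Heat shock proteins lay at 0.41 (4 of 24, or 16.7%, higher and 5, or 20.8%, lower, against 18.3% and 10.6% of all genes; 0.019 without mutant bud replicate 1 and 0.88 without mutant bud replicate 2), with the inducible hsp70.1 and hsp70.3 on the lower side and the constitutive hsp90ab1 at 55.3 and 536 against 476 and 1626. The p53 and apoptosis genes lay at 0.04 (−0.18 without mutant shield replicate 2; 4 of 21 higher, 1 lower), with gadd45ab, a stress-inducible growth arrest gene, listed at 0 at shield and at 38.9 and 12.6 at bud and tp53inp1 at 22.4 and 46.7 against 0 and 4.41. Immediate early and dissociation genes, which respond to the handling of cells, lay at −0.70 (−0.38 without mutant bud replicate 1). Of 18 members 2 (11.1%) were higher without overlap and 3 (16.7%) lower, and jun stood at 52.1 and 8.58 against 0 and 6.72. On the lower side, 1 heat shock and 1 immediate early gene had passed the filter through shield alone and had to lie apart. So had gadd45ab on the higher side, through bud alone.

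Several lists of somatic cell types were high in mutant bud replicate 2. The yolk syncytial list had the higher median in the pairings with bud replicate 1. Its summed share of the FPKM outside the mitochondrial genome was nevertheless higher in bud replicate 2 (0.33%) than in replicate 1 (0.23%). Neural plate genes lay at 1.12 (6 of 25 higher without overlap, 0 lower), axial mesoderm and notochord at 1.05 (3 of 13), paraxial mesoderm and segmentation clock at 0.72 (5 of 18), endoderm at 0.34 (1 of 8 higher, 3 lower), the enveloping layer at 0.53 (0 of 20) and the yolk syncytial layer at 1.85 (6 of 11). The share of all genes higher without overlap was 18.3%, against 24.0%, 23.1% and 27.8% of the first 3 lists. Of the higher members 3 neural, 2 axial, 3 paraxial and 3 yolk syncytial genes had passed the filter through bud alone and had to lie apart. The yolk syncytial pairings were 2.02 and 2.60 with bud replicate 1 and −0.54 and 1.38 with replicate 2, and the list lay at 0.45 without the former and 2.62 without the latter. In the pairings with mutant bud replicate 2 the axial list lay at 2.04 and 3.11, and in those with replicate 1 at −0.44 and −1.02. For the neural list these values were 2.05 and 1.69 against −0.04 and −0.77. Without mutant bud replicate 2 the values of the axial, neural, paraxial and enveloping layer lists were −0.76, −0.49, −0.17 and −0.75, and that of the endoderm list −0.82. Without mutant shield replicate 2 the enveloping layer list lay at −2.1 and the endoderm list at −0.93, and without mutant shield replicate 1 the paraxial list at −0.14.

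The hatching gland protease gene ctslb was listed at 0 in both shield libraries and stood at 11.2 and 264 FPKM at bud. So were the myogenic factor gene myf5, at 1.82 and 97.6 at bud, and the mesodermal genes foxc1a and twist2, at 2.19 and 53.9 and at 1.48 and 57.1. Each was low in bud replicate 1 and high in replicate 2. zic1 of the neural plate was higher in bud replicate 1, with 0 and 0.24 against 29.1 and 5.09. The Notch targets her15.1 and her15.2, copies that may share reads, stood at 0 and 0.35 against 9.66 and 16.8 and at 0 and 1.63 against 20.9 and 28.6. Keratins of the enveloping layer were high in shield replicate 1 and in bud replicate 2, with krt97 at 159.8 and 2.08 against 11.9 and 440.3. Among yolk syncytial genes, the apolipoprotein genes apoeb and apoa4a stood at 32.1 and 376 against 630.4 and 1597 (log2 difference 3.17, SE 0.91, limma adjusted p = 0.449) and at 0 and 0 against 17.8 and 1.46. What part other cells in the pools had in these values was not tested. Epidermis lay at −0.45 (0 of 18 higher, 2 lower, and −0.081 without mutant bud replicate 1) and lateral mesoderm, blood and vessel at −0.30 (0 of 5 higher, 1 lower, and 0.14 without mutant bud replicate 2).

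**Figure D4:**
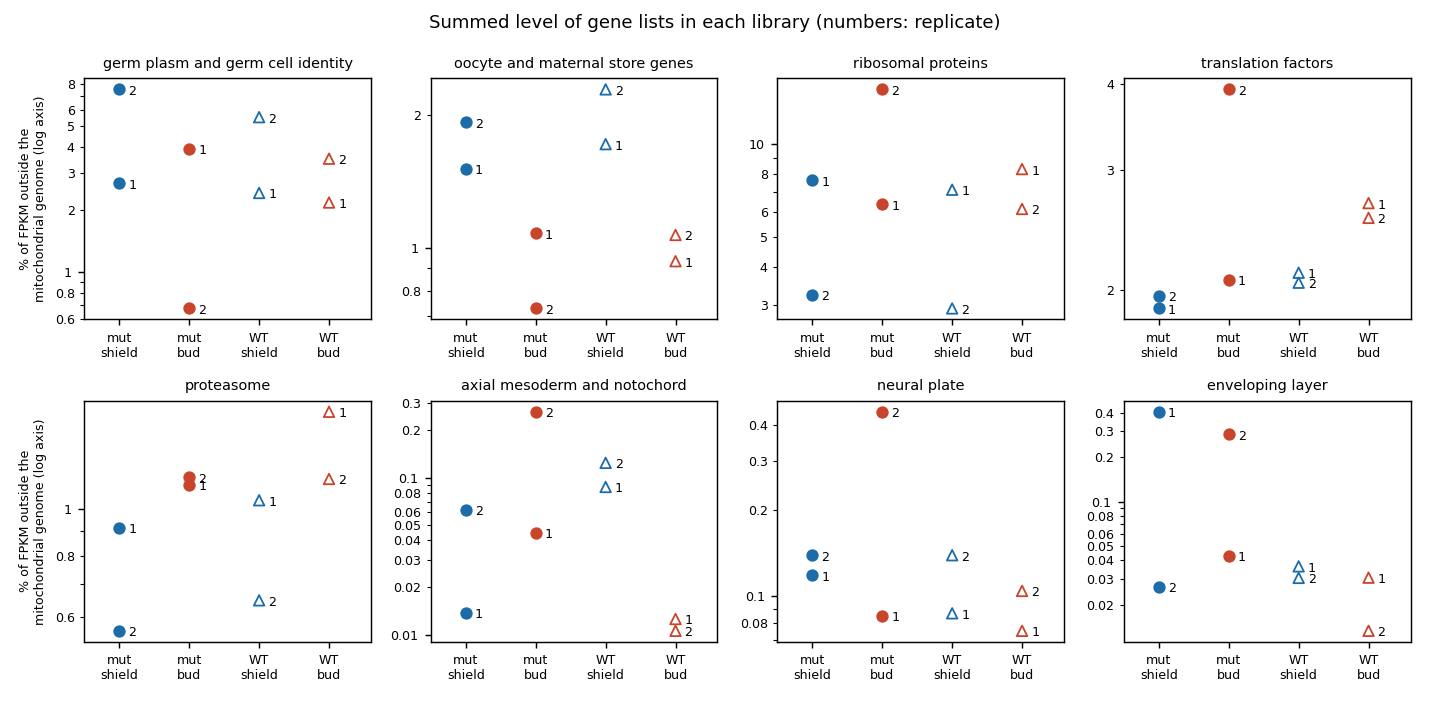
Summed FPKM of 8 gene lists in each of the 8 libraries, as percent of the FPKM outside the mitochondrial genome on log axes that differ between panels; filled circles are mutant, open triangles wild type, blue is shield, red is bud and the number is the replicate. The oocyte list lies in the mutant at 1.51% and 1.93% at shield and 1.08% and 0.73% at bud, while the axial and neural lists are highest in mutant bud replicate 2 and the enveloping layer list in shield replicate 1 and bud replicate 2.

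Signalling lists were also split. Hox and retinoic acid genes had a relative median of 1.65 (2 of 13 higher without overlap, 0 lower), Wnt ligands and targets at 1.05 (6 of 25, 0), FGF ligands and targets at 0.79 (3 of 22, 1), BMP targets at −0.32 (1 of 31, 2) and Nodal pathway and mesendoderm at −0.43 (0 of 16, 3). The FGF value turned to −0.03 without mutant shield replicate 1 and the BMP value to 0.04 without mutant bud replicate 1. Without mutant shield replicate 1 the values of the Hox and retinoic acid list and the Wnt list were 0.56 and 0.27. Without mutant bud replicate 2 they were 0.63 and 0.61. The Nodal value was −0.13 without mutant shield replicate 2 and −0.97 without mutant bud replicate 2. The Hox and retinoic acid share of 2 in 13 (15.4%) is below the 18.3% of all genes, and the Wnt share was 24.0%. Only 13 of the 63 listed Hox and retinoic acid genes were tested, and hoxc6b was the only Hox gene among them. Among the higher members, 2 Wnt genes and 1 FGF gene had passed the filter through bud alone and had to lie apart. meis3, a hindbrain homeobox gene, stood at 0 and 5.01 FPKM at shield and 56.1 and 110.0 at bud (log2 difference 5.02, SE 1.62), and the retinoic acid receptor gene rarga at 0 and 13.0 against 90.9 and 45.2 (4.12, SE 1.49). cdx4, a Wnt target of the tail, stood at 0 and 166 against 68.8 and 336 (log2 difference 3.57, SE 1.52), and its difference turned to −0.12 without mutant shield replicate 1. mycn stood at 0 and 29.5 against 55.7 and 152. On the lower side the Nodal effector gene smad2 stood at 51.2 and 60.2 against 0 and 12.4 (−3.95, SE 1.31), and the BMP target gene smad7 at 10.6 and 88.7 against 0 and 8.86. id1, also a BMP target, overlapped at 570.2 and 2225 against 172 and 804.

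The wild type libraries of the same stages showed in part the same differences. The mutant and wild type stage comparisons share no library. Over the 10821 genes the 2 sets of log2 differences had a Pearson's r of 0.378 and a Spearman's rank correlation of 0.358, given as a description across genes, which are not independent. In wild type, bud lay above shield without overlap for 3163 genes (29.2%) and below for 1094 (10.1%), and 69.1% of the genes had a difference above 0 and 30.3% one below. Of the genes higher without overlap in the mutant, 1009 (9.32% of all) were also higher in wild type, which is 51% of the mutant list and 31.9% of the wild type list. Of those lower, 344 (3.18% of all) were shared, or 30% and 31.4%. The opposite direction was found for 61 genes higher in the mutant and lower in wild type (3.09% and 5.58% of the lists) and 123 lower in the mutant and higher in wild type (10.7% and 3.89%). limma called 0 genes in wild type in either direction, with 126 (1.16%) and 52 (0.481%) at an unadjusted p under 0.05. These p-values use a spread shared with the mutant libraries, whose replicates differed more (SD 1.81 and 2.35, against 1.46 and 0.94 in wild type). The numbers of called genes therefore do not show in which genotype the stages differed more.

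Some gene groups stood on the same side in wild type and others did not. Of the oocyte list 18 of 28 lay lower without overlap in wild type and 0 higher (median −1.45 relative to all genes), and of the ribosomal protein genes 57 of 79 lay higher and 1 lower (0.49). Wild type counts are to be read against the 29.2% of all genes that lay higher there without overlap and the 10.1% that lay lower. Translation factors lay at 0.34, the proteasome at 0.60 and importins at 0.57. Integrins and matrix lay at 0.18 and the yolk syncytial layer at 0.18, against 1.94 and 1.85 in the mutant. ccna1, cldng, inka1a, lsm14b, cth1, cldnd and btg4 had wild type differences of −4.62, −3.54, −3.21, −3.41, −3.08, −4.39 and −4.08. In wild type bud these genes were read in both libraries, from 2.27 and 1.23 FPKM for btg4 to 52.7 and 29.6 for cldng. In mutant bud inka1a (1.28 and 4.34), cth1 (6.65 and 4.81) and cldnd (11.3 and 0.85) were also read in both libraries. There ccna1, cldng and btg4 were read in replicate 2 alone and lsm14b in neither. The interaction of stage and genotype passed for none of these genes. For 14 of the 44 lists the relative median had opposite signs in the 2 genotypes. They include 5 lists of somatic cells, the translocon, ER to Golgi transport and the mitochondrial protein genes. Axial mesoderm lay at −2.68 in wild type, with 0 of 13 higher and 10 lower, against 1.05 in the mutant. Mitochondrial protein genes lay at −1.39, with 0 of 13 higher and 3 lower, against 0.79. Their summed FPKM overlapped between the wild type stages, at 95205 and 25287 against 34364 and 16387. Wild type shield replicate 1 was itself sparse, with 24.3% of tested genes at 0 and 58.47% mitochondrial FPKM. In the mutant the axial value was −0.76 without mutant bud replicate 2. The mitochondrial value was −0.63 without mutant shield replicate 2 and −0.22 without mutant bud replicate 1. Translocon genes lay at −0.30 in wild type, against 0.60. Whether these lists differed between genotypes was not tested.

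Whether a stage difference itself differed between genotypes was tested by the interaction of stage and genotype. limma called 0 genes (0%) in either direction, and 54 (0.499%) had a more positive and 63 (0.582%) a more negative difference in the mutant at an unadjusted p under 0.05. The smallest p on the positive side under the rule was that of dkk1b, at 2.65 and 0.34 FPKM against 153 and 52.7 in mutant and 44.3 and 21.7 against 9.55 and 5.13 in wild type (interaction 7.36 log2 units, SE 1.94, limma adjusted p = 0.9999). six3b followed with an interaction of 7.42 (SE 2.1); in wild type it stood at 6.07 and 0 at shield and was listed at 0 at bud. In wild type mt-atp8 stood at 37289 and 11165 against 10966 and 6968 (2.78, SE 0.94) and fbxw11b at 21.9 and 75.9 against 34.3 and 43.5 (5.36, SE 1.87). tmem45a, listed at 0 in mutant shield, stood at 43.8 and 12.8 in mutant bud and 0 and 1.55 against 0 and 0.80 in wild type (4.89, SE 1.80). Since six3b, fbxw11b and tmem45a had passed the filter through bud alone, they had to lie apart in the mutant.

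On the negative side stood genes that were lower at bud than at shield in the mutant and not in wild type. Among them GPHB5, opn7d and acot7 had passed the filter through shield alone and had to lie apart in the mutant. GPHB5, a glycoprotein hormone subunit, stood at 6.59 and 19.9 FPKM against 0 and 0 in mutant and 0 and 0 against 4.37 and 0 in wild type. CIR1, a transcriptional corepressor, stood at 307 and 172 against 0 and 169 in mutant and 0 and 194 against 162 and 126 in wild type, and each 0 came from a replicate 1. myl6, a myosin light chain, stood at 18.7 and 34.01 against 0 and 7.27 and at 0 and 1.62 against 12.9 and 14.0. opn7d, an opsin gene, stood at 7.38 and 7.87 against 0 and 0 and at 0 and 0.93 against 2.79 and 1.39. acot7, an acyl-CoA thioesterase, stood at 11.3 and 6.89 against 0.88 and 0.29 and at 0 and 0.67 against 5.03 and 5.47. Their interactions ran from −7.52 (SE 2.75) for CIR1 to −4.22 (SE 1.64) for opn7d, and the limma adjusted p was 0.9999 for each of the 10 genes named in both directions.

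**Figure D5:**
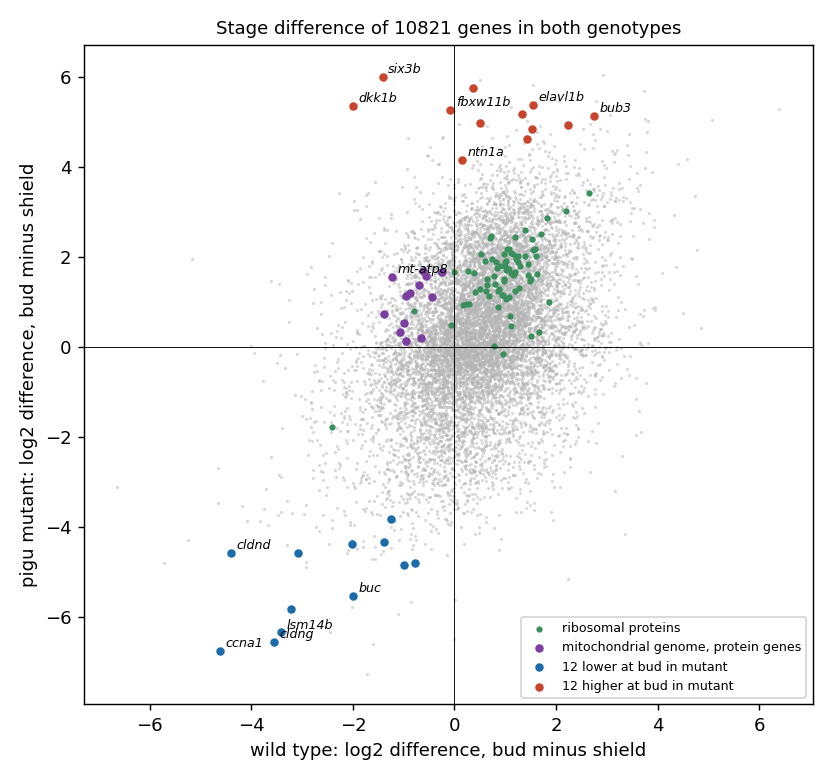
Log2 difference between bud and shield of each tested gene in wild type (horizontal axis) and in the pigu mutant (vertical axis); each grey point is 1 of 10821 genes, and colours mark ribosomal protein genes, mitochondrial protein genes and the 12 genes named on each side. Pearson's r over all genes is 0.378, ccna1 and cldng lie far below 0 on both axes, and dkk1b, six3b and the mitochondrial genes lie above 0 in the mutant and below 0 in wild type.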

How the data were processed

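RNA of pooled, hand-picked germ cells was sequenced in 8 libraries (paired reads, NextSeq, per the labels' protocols). The values are FPKM per gene as deposited by the authors. Named in the submitters' processing notes are the build danRer11, Cufflinks 2.2.1, STAR 2.5.3a and Trim Galore. Neither the gene annotation nor how multi-mapped reads were counted is given in the sources used here. The table held 31934 entries for 31200 symbols, of which 545 occurred more than once. Of repeated symbols the most abundant entry was kept, and summing them was an alternative. Read depth is unknown, so no counting error is given.

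Genes that reached an FPKM of 1 in 2 or more mutant libraries were tested on log2(FPKM + 1) with limma 3.58.1 in R 4.3.3 (trended moderation), with a mean for each of 4 groups over all 8 libraries (4 residual degrees of freedom, 19.89 after moderation). Contrasts were bud minus shield in mutant and in wild type, and their difference. Benjamini-Hochberg adjustment ran over 10821 genes. The pipeline was tested on simulated data with the same normal noise in every library. That simulation held no sparse libraries, so it cannot show how the test behaves with them. The members and the 44 gene lists were chosen with earlier results of these data known, and some lists share genes. By rule, the 12 genes each way with the smallest p among named genes whose stages do not overlap and whose higher group averaged at least 5 FPKM are named, with 5 each way for the interaction and up to 4 with the smallest p of each list. Any other gene was chosen after its values were seen. Scalings, filters, pseudocounts, moderation, a replicate block and leaving out libraries were tried as alternatives.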

Additional observations from a re-analysis of the deposited data

Results flagged for a closer look

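The stage difference ran in opposite directions in the 2 genotypes, with no overlap between the stages in either, for 7 of the genes named here. Of these, dkk1b, mt-atp8, myl6, opn7d and acot7 were named by the interaction rule. That rule takes the smallest p among genes whose stages do not overlap in the mutant. Both opn7d and acot7 had also passed the filter through shield alone and had to lie apart in the mutant. The interaction of stage and genotype in limma was more positive in the mutant for dkk1b (7.36 log2 units), mt-atp8 (2.78) and mt-nd6 (2.31). It was more negative for myl6 (−6.35), acot7 (−4.93), opn7d (−4.22) and sec11a (−3.08). None of these interactions passed the adjusted threshold. Across all 10821 genes such an opposite separation was found for 61 genes higher in the mutant (0.564%) and 123 lower in the mutant (1.14%). These shares are no background for the 7 named genes, several of which were chosen for their lack of overlap in the mutant.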

How the results depend on the processing

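The counts of called genes depended on the processing. With 0 genes called higher and 3 lower at bud in the mutant, leaving out 1 library gave 0 to 356 higher and 0 to 20 lower, both highest without mutant shield replicate 2. The lower count was 0 with a pseudocount of 0.1, without a filter, with filters of FPKM 1 in 2 of 8 libraries, FPKM 5 in 2 of 4 or FPKM 1 in all 4, without a mean trend and with array weights. It was also 0 without both mutant replicates 1 and, chosen after seeing the data, without the pair of mutant shield 1 and mutant bud 2. It was 5 with a pseudocount of 5, 6 with robust moderation, 6 at a threshold of 0.1, 9 with median-of-ratios scaling and 10 when rescaled to the FPKM outside the mitochondrial genome. With the 4 mutant libraries alone it was 2, neither of them among the 3. ccna1 passed in 15 of 25 settings and cldng in 14 of 25, with adjusted p from 6.06e-05 to 0.781 for both. In wild type, array weights gave 3 genes higher and 8 lower in place of 0, and leaving out 1 library 0 to 1 in each direction. The interaction count stayed at 0 when single libraries were left out. The causes were not tested.

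The count of genes without overlap, higher at bud, was 937 with the filter of all 4 libraries, 4799 without both mutant replicates 1, 3947 without the pair of mutant shield 1 and mutant bud 2, and 1977 to 5055 without single libraries. The lower count was 326, 6016, 6818 and 1145 to 4222 in the same order, with 2045 after quantile normalization and 1865 when rescaled. Fewer libraries make a lack of overlap easier to reach.

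A block for the replicate number gave 6 genes higher, among them ntn1a, six3b and prdm14, and 12 lower. The labels do not say that numbers pair the pools. The differences of replicate 2 from replicate 1 at mutant shield and at mutant bud had a correlation of 0.02 across the 10821 tested genes. For the other pairs of groups it was 0.33 (mutant and wild type shield), 0.27 (wild type shield and bud), 0.17 (mutant shield and wild type bud), 0.06 (mutant bud and wild type shield) and 0.02 (mutant bud and wild type bud).

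Without both mutant replicates 1 the sign turned for pigs (1.21), ccna2 (−1.65), dazl (−1.53) and lsm14ab (−0.25). Without the pair of mutant shield 1 and mutant bud 2 it turned for hsp90ab1 (−0.17), pigt (−1.85), cdx4 (−1.26), ccna2 (−0.48), lsm14ab (−0.59), npm2b (0.27) and ybx1 (−0.94). A pseudocount of 5 turned pigs to 0.057, and the 3 scalings turned ccna2 to −0.58, −0.55 and −0.63. Leaving out 1 library, the differences ranged from −2.22 to 0.84 for pigu (0.67 also turned), −2.90 to 1.77 for pigs, −0.92 to 1.22 for pigt (−0.77 also turned), −0.12 to 7.26 for cdx4, −1.09 to 4.62 for krt97, −1.07 to 1.23 for ccna2, −0.42 to 2.42 for dazl, −1.55 to 0.76 for dnd1, −0.42 to 5.11 for lsm14ab and −1.14 to 0.28 for npm2b.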
